A study of Mus musculus with 6 samples.

Results

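Csrp3, Myh3, Myf6, Mef2c and Smyd1 are 5 regulators and markers of the growth and differentiation of striated muscle. They were measured with 6 of the 29922 probes of a one-colour mouse array, which carried 16675 gene symbols in all. The probes were those whose symbol in the platform annotation was one of the 5 names. Smyd1 had 2 probes (mMC016067 and mMR026664), and each of the other genes had 1. The genes had been singled out for their difference between the muscle of extract-treated and of control mice in these same data, so that difference is given below as a description, with no test.

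The mice were ob/ob animals (B6.V-Lepob/J), which lack functional leptin and become obese and insulin resistant. The treated group received MCSE, a water extract of Momordica charantia (bitter melon) seeds, by mouth, and the control group received phosphate-buffered saline (PBS). All mice, of either group, were fasted for 4 h, dosed 15 min before an intraperitoneal glucose load of 1 g/kg, and killed 4 h after the glucose. There was 1 array for each of MCSE muscle, PBS muscle, MCSE liver, PBS liver, MCSE adipose and PBS adipose. The labels give no age, no number of mice per array and no statement on pooling. With 1 array per group, a difference between MCSE and PBS within a tissue could not be tested, and one shared by the tissues was not tested here.

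Myf6 (also called MRF4) belongs to the basic helix-loop-helix factors that switch on the muscle programme by binding E-boxes, and it is the member of that group most abundant in adult fibres. Mef2c is a MADS-box transcription factor that works with those proteins on muscle promoters. Csrp3, the muscle LIM protein, sits at the Z-disc of the sarcomere and takes part in stretch sensing, Smyd1 is a muscle methyltransferase needed for sarcomere assembly, and Myh3 encodes the embryonic myosin heavy chain, which adult muscle re-expresses when it regenerates.

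The promoters of Csrp3, Myh3, Mef2c and Smyd1 are shown because Myf6 and its relatives act through the E-box, the sequence CANNTG. Each window runs from 250 bases before to 50 bases after a start site in RefSeq (GRCm38.p6), and capitals mark every E-box, a motif that reads the same on both strands. Csrp3 has 2 such windows and Mef2c has 3, of which the first listed is printed, and 4 of the 5 members were matched.
Csrp3 promoter, chr7:48848002-48848301, minus strand: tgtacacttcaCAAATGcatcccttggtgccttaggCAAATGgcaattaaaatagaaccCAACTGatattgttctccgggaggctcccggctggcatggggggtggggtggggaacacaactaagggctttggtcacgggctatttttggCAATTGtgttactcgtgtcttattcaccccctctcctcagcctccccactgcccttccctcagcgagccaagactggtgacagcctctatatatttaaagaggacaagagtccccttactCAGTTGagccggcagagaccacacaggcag
Myh3 promoter, chr11:67078050-67078349, plus strand: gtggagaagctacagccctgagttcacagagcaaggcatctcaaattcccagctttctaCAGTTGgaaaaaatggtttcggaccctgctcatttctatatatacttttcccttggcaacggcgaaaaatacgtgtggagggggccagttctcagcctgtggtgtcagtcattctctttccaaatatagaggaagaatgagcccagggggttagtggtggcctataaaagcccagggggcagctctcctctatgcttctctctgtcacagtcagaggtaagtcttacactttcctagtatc
Mef2c promoter, chr13:83503784-83504083, plus strand: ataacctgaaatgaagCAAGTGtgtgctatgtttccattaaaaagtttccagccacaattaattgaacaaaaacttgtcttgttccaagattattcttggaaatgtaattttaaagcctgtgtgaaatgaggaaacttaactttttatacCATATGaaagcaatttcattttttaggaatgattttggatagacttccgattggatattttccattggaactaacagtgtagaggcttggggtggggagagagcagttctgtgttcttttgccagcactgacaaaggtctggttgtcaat
Smyd1 promoter, chr6:71262232-71262531, minus strand: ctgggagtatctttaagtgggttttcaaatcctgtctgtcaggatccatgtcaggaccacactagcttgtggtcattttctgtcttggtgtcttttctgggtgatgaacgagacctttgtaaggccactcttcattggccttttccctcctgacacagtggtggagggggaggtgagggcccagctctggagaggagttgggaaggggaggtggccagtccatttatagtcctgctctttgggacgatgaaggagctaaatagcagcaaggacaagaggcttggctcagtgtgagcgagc
The printed Csrp3 window held 5 E-boxes, the Mef2c window 2, the Myh3 window 1 and the Smyd1 window 0. Of the windows not printed, the second of Csrp3 held 4, the second of Mef2c 0 and the third of Mef2c 1. Of 32851 such windows in the table, 72.3% held at least 1 E-box, with a median of 1. The MEF2 site and the CArG box, searched by their usual consensus on both strands, occurred in 1.86% and 1.63% of all windows and in none (0) of the member windows. A match describes only the letters of the window.

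The first question was what each array contained, since the members are read as muscle genes. Fast-fibre genes were bright on the muscle arrays alone. Of 8 fast-fibre markers, 7 lay in the upper quartile of all values on the MCSE muscle and on the PBS muscle array, against 2 or fewer on any other array. The liver-labelled arrays and the MCSE adipose array shared their pattern of hepatocyte, white adipocyte and kidney markers. On each of them 5 of 6 hepatocyte markers, 6 of 6 white adipocyte markers and 5 of 5 kidney markers lay in the upper quartile. White adipocyte markers were bright on the muscle arrays too, with 5 of 6 in the upper quartile on each. Of hepatocyte markers 2 of 6 lay there on each muscle array, and of kidney markers 2 of 5 (MCSE muscle) and 0 of 5 (PBS muscle). The PBS adipose array stood apart, with a Pearson correlation of 0.327 with the MCSE adipose array over all probes against 0.982 for MCSE adipose with MCSE liver, and 2 of 6 white adipocyte markers in its upper quartile. It carried 5 of 7 heart markers and 5 of 8 slow-fibre markers there. The PBS liver array also carried 3 of 7 heart and 4 of 8 slow-fibre markers in the upper quartile. On the MCSE liver and the MCSE adipose array these counts were 0 and 2 each. The MCSE muscle array had 5 of 7 heart and 8 of 8 slow-fibre markers there, and the PBS muscle array 4 and 6. "Liver" and "adipose" below name only the labels of arrays.

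Values are log2 of the deposited normalized intensity. Values under 214.2, the 5th percentile of the table (7.74 on the log2 scale), were raised to it, so a level at this floor is an upper limit. The median of all values was 8.95, and a probe counted as measured on a pair of arrays when it reached that median on at least 1 of them. All 6 member probes were measured in muscle.

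Csrp3 was the member with the widest positive difference in muscle. Its log2 intensity was 14.40 on the MCSE muscle array and 12.56 on the PBS muscle array, a difference of 1.84 or 3.58-fold. Both muscle arrays lay above the 4 others, on which Csrp3 read 7.82 (MCSE liver), 8.10 (PBS liver), 8.34 (MCSE adipose) and 9.86 (PBS adipose). Of 16073 probes measured in muscle, 115 (0.715%) had a difference at least as far above 0. The transcript was thus bright in muscle with either treatment and dim on the liver-labelled arrays, at percentile 7.42 (MCSE liver) and 19.2 (PBS liver) of its array.

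Myf6 had a similar level and a smaller difference. Its log2 intensity was 14.39 on the MCSE muscle array and 13.38 on the PBS muscle array, a difference of 1.01 or 2.01-fold, just past 2-fold. It lay at the floor with the labels MCSE liver, PBS liver and MCSE adipose, and at 8.41 (PBS adipose), below the median of all values. A difference at least as far above 0 occurred in 702 probes (4.37%). No other member separated the muscle arrays from the rest by so wide a gap, 4.97 between the lower muscle array and the brightest of the 4 others.

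Myh3, the embryonic myosin, had values nearer the median of its arrays. Its log2 intensity was 10.27 on the MCSE muscle array and 9.15 on the PBS muscle array, a difference of 1.12 or 2.18-fold, and 3.49% of measured probes lay at least as far above 0. The PBS value sat only a little over the median of all values, at percentile 55.2 of its array. The muscle arrays were not set apart from the rest. Myh3 read 8.21 (MCSE liver), 8.90 (PBS liver), 8.30 (MCSE adipose) and 10.09 (PBS adipose), and the last of these lies between both muscle arrays.

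Mef2c differed in the other direction. Its log2 intensity was 12.43 on the MCSE muscle array and 13.80 on the PBS muscle array, a difference of -1.37, or 2.58-fold lower with MCSE. A difference at least as far below 0 occurred in 137 measured probes (0.852%). The 4 other arrays were all dimmer, at 8.78 (MCSE liver), 9.47 (PBS liver), 8.62 (MCSE adipose) and 9.44 (PBS adipose). Mef2c was also lower with MCSE on both of the other pairs, with differences of -0.69 (liver) and -0.83 (adipose), where the levels lay near the median. Differences at least as far below 0 were common there, in 15.1% of probes measured on the liver-labelled pair and 42.1% on the adipose-labelled pair.

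The 2 probes of Smyd1 did not give the same picture. Probe mMC016067 read 13.97 on the MCSE muscle array and 13.83 on the PBS muscle array, a difference of 0.14. Its levels elsewhere were 8.54 (MCSE liver), 9.19 (PBS liver), 8.33 (MCSE adipose) and 10.43 (PBS adipose), so both muscle arrays lay above the rest. Probe mMR026664 was at the floor on the MCSE muscle array and at 14.97 on the PBS muscle array, at least 150.2-fold lower with MCSE (a log2 difference of -7.23). Only 1 of 16073 measured probes, mMR026664 itself, lay that far below 0.

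Probe mMR026664 was above the upper quartile of all values (10.20) on every array but MCSE muscle. It read 14.19 (MCSE liver), 11.62 (PBS liver), 14.23 (MCSE adipose) and 10.93 (PBS adipose). The difference between MCSE and PBS was thus 2.56 on the liver-labelled pair and 3.30 on the adipose-labelled pair, opposite in sign to muscle. Of 4482 probes in the upper quartile on the PBS muscle, MCSE liver, PBS liver and MCSE adipose arrays together, 3 lay at the floor on the MCSE muscle array. These were mMR026664, a probe for Cs (citrate synthase, 14.33 on the PBS muscle array) and a probe for Bzw2 (12.46 on the PBS muscle array). The same pattern with another of these 5 arrays as the dim one was found for 2 probes on the PBS liver array and for 0 on the PBS muscle, MCSE liver and MCSE adipose arrays. The Cs and Bzw2 probes were the only probes of their genes, so Smyd1 alone of the 3 had a second reading. Whether mMR026664 detects the Smyd1 transcript was not tested, since its sequence was not used here.

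**Figure D1:**
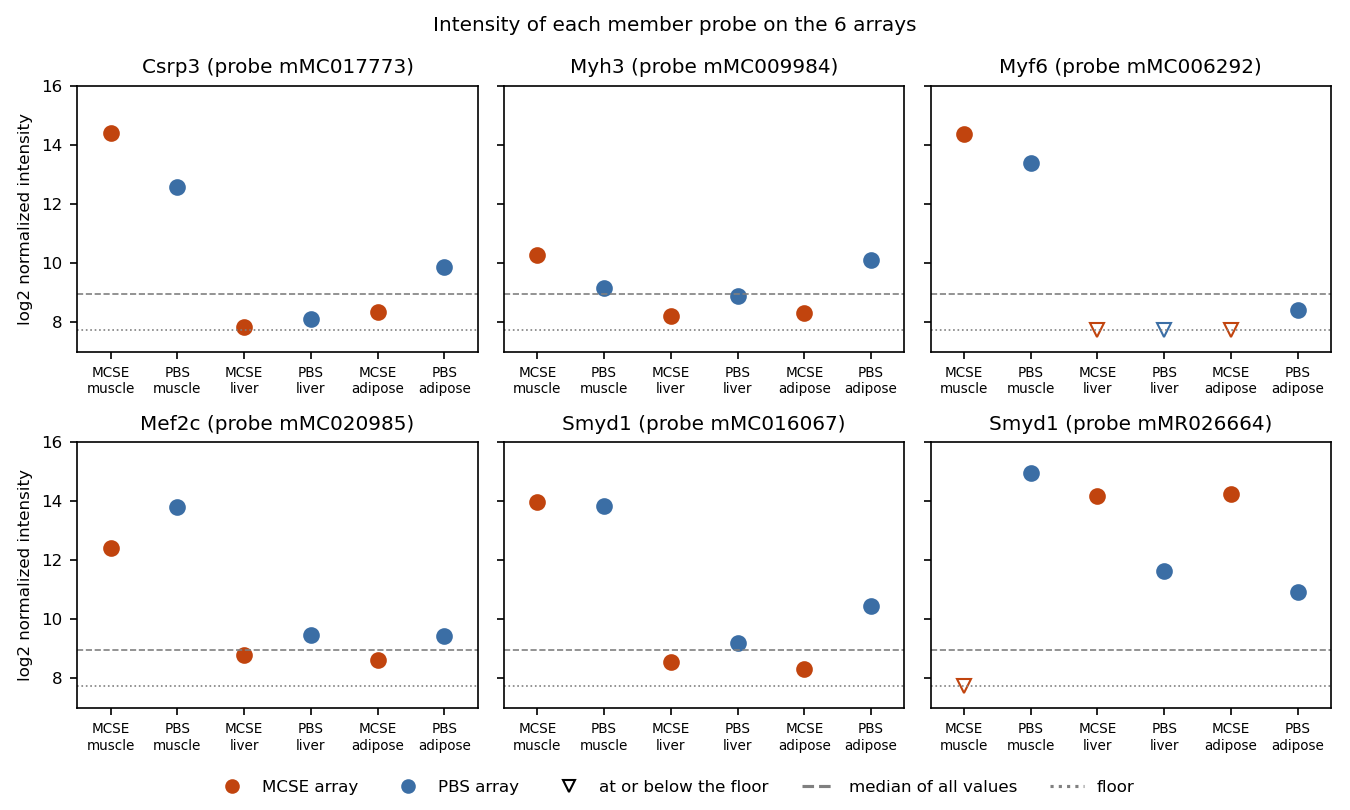
Log2 normalized intensity (y axis) of each of the 6 member probes on the 6 arrays (x axis, 1 point per array, no error bars because there was 1 array per group); open triangles are values at or below the floor. Csrp3, Myf6, Mef2c and Smyd1 probe mMC016067 were brightest on the 2 muscle arrays, Myh3 was not separated from PBS adipose, and Smyd1 probe mMR026664 was at the floor on MCSE muscle alone.

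In muscle, 3 member probes were thus at least 2-fold higher with MCSE, 2 were at least 2-fold lower and 1 lay within 2-fold. The background over all 16073 measured probes was 4.41% (709) for 2-fold higher and 2.02% (324) for 2-fold lower. Nothing is read from that comparison, since the genes were picked by this difference. As a gauge of part of the technical error, 2 measured probes of the same gene scattered with an SD per probe of 0.517 in muscle (1504 genes). Variation between mice does not enter this SD, nor does any error of a sample or array that both probes share. The ratios that follow use the muscle difference by which the genes were picked, so nothing is read from their size. Divided by this SD, the difference was 3.56 for Csrp3, 2.17 for Myh3, 1.94 for Myf6, 0.272 for Smyd1 probe mMC016067, -2.65 for Mef2c and, with its MCSE value at the floor, -14.0 for Smyd1 probe mMR026664.

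**Figure D2:**
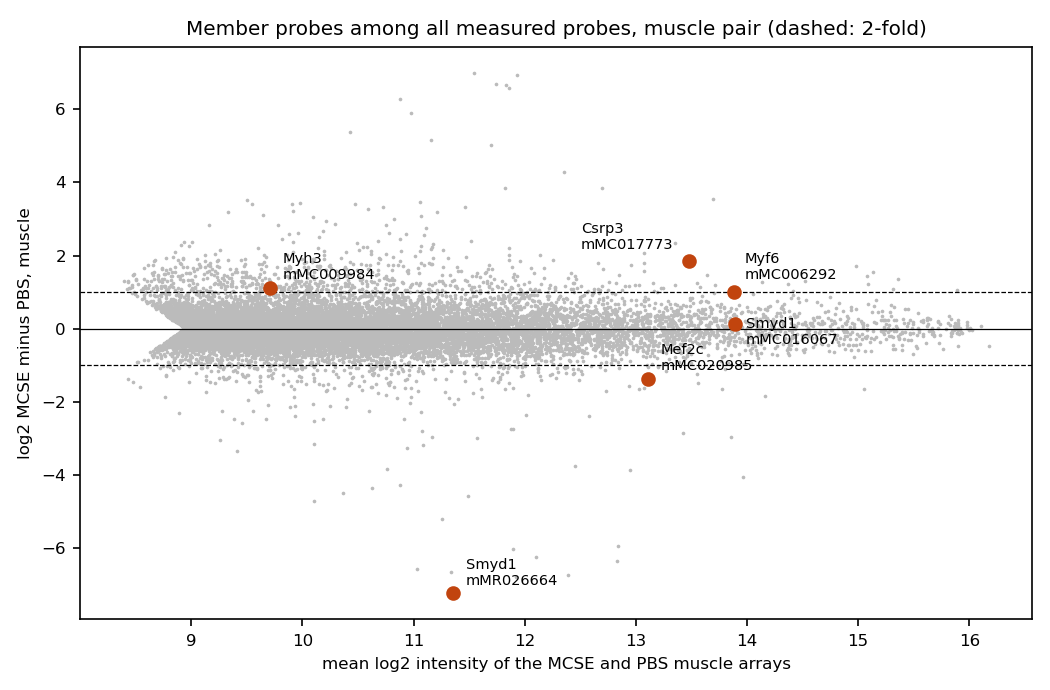
Log2 MCSE minus PBS in muscle (y axis) against the mean log2 intensity of the 2 muscle arrays (x axis) for the 16073 measured probes (grey) and the 6 member probes (red); dashed lines mark 2-fold. Smyd1 probe mMR026664 had the lowest difference of all measured probes, at -7.23, and Smyd1 probe mMC016067 lay near 0, at 0.14.

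On the liver-labelled pair, 3 of the 6 member probes were measured (Mef2c and both Smyd1 probes), and 1 passed 2-fold, Smyd1 probe mMR026664, which was higher. There 8.48% of 16880 probes were 2-fold higher with MCSE and 6.37% were 2-fold lower. On the adipose-labelled pair 33.6% of 20712 probes were 2-fold higher and 38.1% were lower, 71.6% in all, so a difference of this size was the common case. Csrp3 was at -1.52, Myh3 at -1.80 and Smyd1 probe mMC016067 at -2.11 on that pair, each with its higher value on the PBS adipose array.

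The levels in muscle were then compared with those on the liver-labelled arrays. This contrast is not independent of the choice of genes, which had to be read on the muscle arrays and were picked with these data known. The MCSE and PBS arrays of muscle (n = 2) were set against the MCSE and PBS arrays labelled liver (n = 2) with limma over 19055 probes. Of these probes, 8.63% were called higher in muscle and 12.9% lower, by a 2-fold or wider difference with an adjusted p under 0.05. Each tissue thus had 1 MCSE and 1 PBS array, and any effect of MCSE is part of the spread within it. Nothing in the labels says whether they came from separate mice, so p-values measure only the spread between these arrays. Fewer cells of a type and less RNA per cell cannot be told apart in such tissue samples.

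Csrp3, Myf6, Mef2c and Smyd1 probe mMC016067 were called higher in muscle among the probes that reached the median of all values on at least 1 of the 4 arrays. With no such filter Mef2c was not called, and the adjusted p from limma was 0.0493 for Csrp3, 0.0265 for Myf6, 0.0244 for Smyd1 probe mMC016067 and 0.0583 for Mef2c. Csrp3, Myh3 and Myf6 reached that median only on muscle arrays among these 4, so they could enter the filtered fit only by being bright in muscle. The values below are from the filtered fit. Myf6 averaged 13.88 ± 0.711 in muscle (SD, n = 2) and lay at the floor on both liver-labelled arrays, at least 70.6-fold higher in muscle (6.14 ± 0.39 on the log2 scale, SE, adjusted p from limma 0.000888). The liver-labelled values at the floor carry no spread, so this SE rests on the muscle arrays and on the spread shared over all probes. Csrp3 averaged 13.48 ± 1.30 in muscle and 7.96 ± 0.198 on the liver-labelled arrays (SD, n = 2 each), a difference of 5.52 ± 0.59 (SE, adjusted p from limma 0.00358). Smyd1 probe mMC016067 averaged 13.90 ± 0.0996 in muscle and 8.87 ± 0.462 on the liver-labelled arrays, a difference of 5.03 ± 0.33 (SE, adjusted p from limma 0.000914). Mef2c averaged 13.11 ± 0.968 in muscle and 9.12 ± 0.487 on the liver-labelled arrays, a difference of 3.99 ± 0.51 (SE, adjusted p from limma 0.00572).

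Myh3 and the second Smyd1 probe did not pass. Myh3 averaged 9.71 ± 0.793 in muscle and 8.55 ± 0.489 on the liver-labelled arrays, a difference of 1.16 ± 0.46 (SE, adjusted p from limma 0.115). Smyd1 probe mMR026664 averaged 11.36 ± 5.11 in muscle and 12.90 ± 1.81 on the liver-labelled arrays, a difference of -1.55 ± 2.19 (SE, adjusted p from limma 0.616). Without the MCSE muscle array the sign of this last difference turned, to 2.07, and without the PBS muscle array it was -5.16 with an adjusted p from limma of 0.0324.

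With the adipose-labelled arrays in the fit, so that all 6 arrays shared 1 estimate of the spread, only Myf6 of these probes was called, and the adjusted p from limma was 0.0238 for Myf6, 0.0875 for Csrp3, 0.100 for Smyd1 probe mMC016067 and 0.140 for Mef2c, with the same differences. Over the 10 alternatives run, the adjusted p from limma ranged from 1.83e-06 to 0.0265 for Myf6, from 1.67e-05 to 0.0875 for Csrp3, from 4.07e-06 to 0.100 for Smyd1 probe mMC016067 and from 1.67e-05 to 0.140 for Mef2c. For Myh3 it ranged from 0.0499 to 0.750. Each of these lowest values came from the fit with treatment as a term. That fit leaves fewer residual degrees of freedom and pairs arrays by treatment alone, so these values are not read as support. All alternatives but the fit with no filter kept a filter on dim probes. For Smyd1 probe mMR026664 the difference itself ranged from -5.16 to 2.07.

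**Figure D3:**
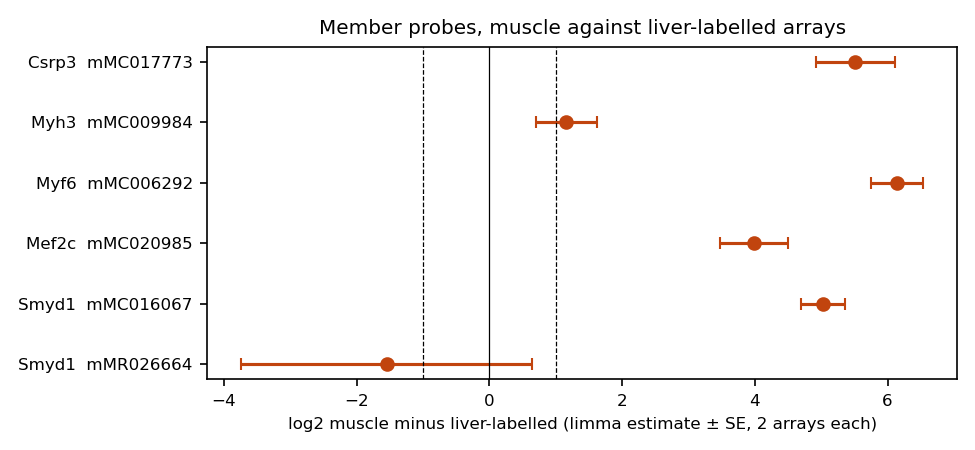
Difference in log2 intensity between muscle and the liver-labelled arrays for each member probe (x axis; point, limma estimate in the filtered fit; bar, SE; 2 arrays each); dashed lines mark 2-fold. Csrp3, Myf6, Mef2c and Smyd1 probe mMC016067 lay between 3.99 and 6.14, Myh3 at 1.16 and Smyd1 probe mMR026664 at -1.55.

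The close relatives of each member were then read on the same muscle pair. Among the 4 myogenic helix-loop-helix factors, Myf6 was the only one past 2-fold. Myod1, which commits cells to the muscle lineage, read 9.63 on the MCSE muscle array and 8.96 on the PBS muscle array, a difference of 0.67. Myog, the factor of terminal differentiation, read 8.78 with MCSE and 9.16 with PBS (-0.37), and Myf5, expressed in early myoblasts, stayed below the median of all values on both arrays (8.52 and 8.21).

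Mef2c was the only measured gene of its family. The probes of Mef2a, Mef2b and Mef2d stayed below the median of all values on both muscle arrays, with differences between -0.37 and 0.08, at levels where a difference could hardly show. Of the Csrp3 relatives, Csrp1, which is abundant in smooth muscle, differed by -0.33 and Csrp2 by -0.04. Unlike Csrp3, these probes were not brighter in muscle. Csrp2 read 10.04 on the MCSE muscle array and 10.08 on the PBS muscle array, against 12.63 on the MCSE liver and 12.24 on the PBS liver array.

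Among the Smyd genes, Smyd4 was 2-fold lower with MCSE, at 9.39 on the MCSE muscle array and 11.05 on the PBS muscle array (-1.66). Smyd2 differed by -0.04 and Smyd3 by 0.18, and Smyd5 was not measured. Of 7 measured genes that work with Smyd1 or in myosin folding, 1 passed 2-fold, higher with MCSE. Unc45b, a myosin chaperone, differed by -0.10 and Naca, whose muscle isoform binds Smyd1, by 0.09. Hsp90aa1, an Hsp90 chaperone, was that gene, at 12.65 on the MCSE muscle array and 11.15 on the PBS muscle array on its brightest probe. Its other probes differed by 0.85 and, below the median of all values, -0.08.

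The sarcomeric myosin heavy chains had 13 measured probes, 12 of them for genes other than Myh3. Of these 12, 2 were 2-fold higher with MCSE and 1 was 2-fold lower. Myh7, the slow isoform shared with heart, read 15.46 on the MCSE muscle array and 11.92 on the PBS muscle array on probe mMR030049, 3.54 higher. Its other probe was not measured. Of 4 Myh7b probes, mMC022713 was 1.04 higher and the others lay between -0.21 and 0.19. Myh6, the atrial and fast cardiac isoform, was at -1.15, with 10.46 on the MCSE muscle array and 11.61 on the PBS muscle array. Myh8, the perinatal isoform that is expressed along with Myh3 in developing and regenerating fibres, differed by 0.39 and -0.17 on its measured probes. The adult fast isoforms Myh1 (-0.06 on its brightest probe), Myh2 (0.29) and Myh4 (-0.57) lay within 2-fold, near the top of the scale.

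**Figure D4:**
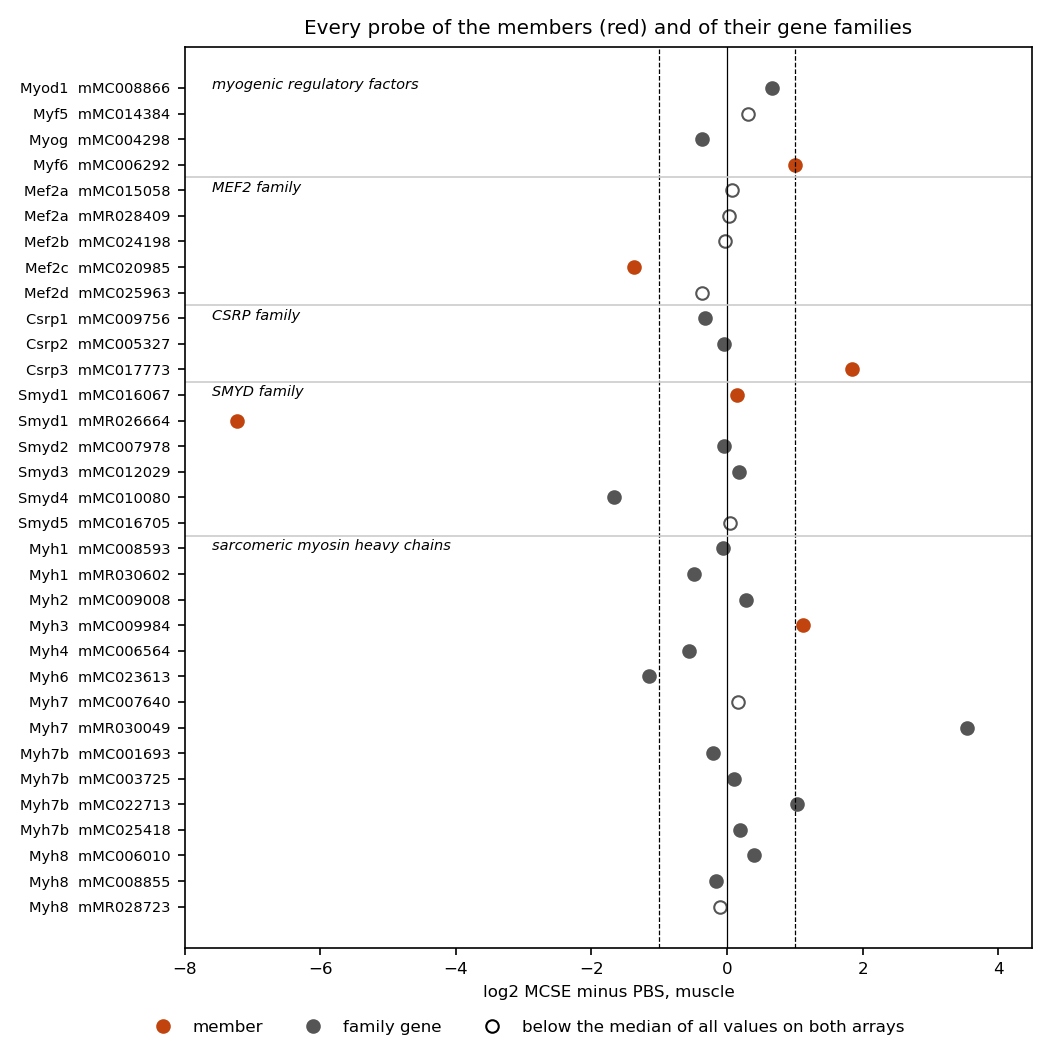
Log2 MCSE minus PBS in muscle (x axis) for every probe of the members (red) and of their gene families (grey), 1 row per probe; open circles lay below the median of all values on both arrays, and dashed lines mark 2-fold. Apart from the members, Myh7 (3.54), Myh7b (1.04), Myh6 (-1.15) and Smyd4 (-1.66) had a probe past 2-fold.

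Wider lists of muscle genes were summarised by the probe of each gene with the highest mean over the 6 arrays, which need not be its brightest in muscle, beside all 10711 genes measured in muscle, of which 3.90% were 2-fold higher, 1.88% were 2-fold lower and the median was -0.05. Taking the probe brightest on the 2 muscle arrays, a choice added after the values were seen, gave 432 genes higher and 209 lower of 10756, and moved a 2-fold count for the growth and atrophy genes, the smooth muscle markers and, through Smyd1 itself, the Smyd genes. The lists had been drawn up with earlier results of these data known. Slow-fibre genes stood highest. Of 10 measured, 7 passed 2-fold upward with MCSE and 0 downward. Their median was 1.34, and the widest differences were those of Tnni1 and Tnnt1 (3.84 each), Myh7 and Tpm3 (2.62). Of 14 fast-fibre genes, 1 passed 2-fold upward (Eno3, muscle enolase, 1.55, with 0.05 on a dim second probe) and 0 downward. Their median was -0.05.

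Csrp3 works at the Z-disc, and 3 of 22 measured Z-disc and mechanosensing genes were 2-fold higher with 0 lower and a median of 0.15. Xirp1, an actin-binding protein of injured and remodelling fibres, read 14.53 on the MCSE muscle array and 12.17 on the PBS muscle array (2.36). Myoz2, the slow-fibre calsarcin that is also on the slow-fibre list, was 1.47 higher. Flnc, muscle filamin, was 1.31 higher on its brightest probe and at -0.50 on its other probe. Ttn (titin) counted as within 2-fold (-0.14), while 3 of its other probes passed 2-fold, at 1.58, 1.08 and -1.39. Tcap, which binds Csrp3 at the Z-disc, differed by -0.03 at an intensity near the top of the scale, and the stretch-responsive ankyrin repeat genes Ankrd1 and Ankrd2 differed by -0.44 and 0.94.

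Of 12 measured cofactors and regulators of Mef2 proteins, 2 passed 2-fold upward and 1 downward, around a median of 0.06. Rcan1, a calcineurin inhibitor that calcineurin signalling itself induces, read 14.11 on the MCSE muscle array and 12.04 on the PBS muscle array (2.07). Vgll2, a partner of Tead and Mef2 factors in muscle, was 1.00 higher, with a PBS value near the median of all values. Nfatc1, a calcineurin-regulated factor of slow fibres, was at -1.17 on its brightest probe and -0.05 on its other measured probe. The class II histone deacetylases that repress Mef2 proteins lay within 2-fold, Hdac4 at 0.15, Hdac5 at 0.21, Hdac7 at 0.63 and Hdac9 at -0.02.

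Of 14 growth and atrophy genes, 0 were higher and 1 was lower, Ddit4, an inhibitor of mTORC1 (-1.48), with a median of -0.04. Foxo3, a factor that drives atrophy genes, counted as within 2-fold by probe mMC014829 (0.22), but its probe mMC003480, brighter in muscle, read 12.12 on the MCSE muscle array and 10.00 on the PBS muscle array (2.12), and with it 1 gene was higher. Mstn (myostatin) differed by -0.17, Igf1 by 0.36 and the atrophy ligase gene Fbxo32 by 0.16. Of 12 satellite cell and fusion genes, 1 was higher, Megf10, a receptor of satellite cells (1.41, with 8.91 on the PBS muscle array, below the median), with a median of 0.12, and Pax7, the defining satellite cell factor, lay at the floor on both muscle arrays. Of 11 genes that rise in denervated or regenerating muscle, 0 passed 2-fold in either direction, with a median of -0.27. Ncam1, which is on this list and on the satellite cell list, was at 0.80 by the probe used and at -1.08 by its other measured probe.

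**Figure D5:**
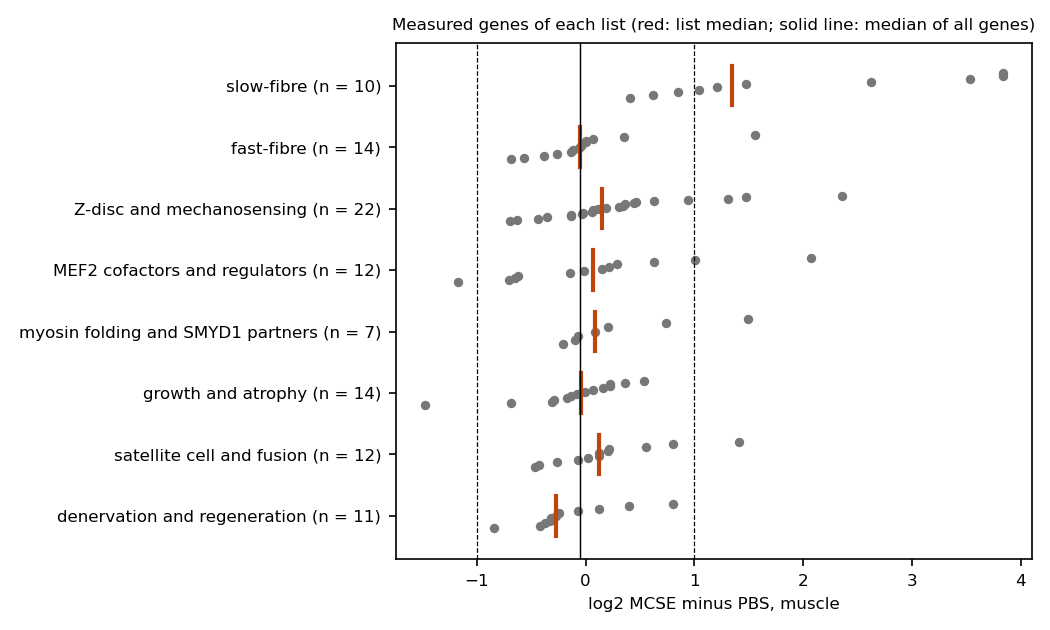
Log2 MCSE minus PBS in muscle (x axis) for the measured genes of 8 lists (grey points, 1 per gene by its probe with the highest mean over the 6 arrays, n beside each name); red bars are list medians, the solid line is the median of all 10711 measured genes and dashed lines mark 2-fold. Slow-fibre genes had a median of 1.34 and denervation and regeneration genes a median of -0.27.

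Markers of fibre types and of other cells also differed between the muscle arrays. All 8 slow-fibre markers reached the median of all values on both, and their summed intensity was 190533 on the MCSE muscle array and 60263 on the PBS muscle array, with 6 of 8 markers 2-fold higher. The 8 fast-fibre markers summed to 396083 with MCSE and 433219 with PBS, with 0 of 7 measured past 2-fold and Tnni2 below the median on both arrays. Their median level was 15.85 (MCSE muscle) and 15.91 (PBS muscle), near the top of the scale. A rise could hardly show there. Heart markers summed to 23828 with MCSE and 31809 with PBS, with 1 of 6 measured 2-fold higher, 1 lower and Nppb below the median on both arrays. Kidney markers summed to 10436 with MCSE and 2971 with PBS, with 2 of 4 measured 2-fold higher and Slc12a1 below the median on both arrays. That gap leans on Kap (3.20), with Slc34a1 at 1.12, Umod at 0.70 and Aqp2 at -0.01. Hepatocyte markers summed to 5783 with MCSE and 10063 with PBS, with 1 of 3 measured 2-fold lower and Apoc3, Fgb and Tat below the median on both arrays. Here the gap leans on Alb (-1.91), with Ttr at -0.93 and Apoa1 at 0.09. Macrophage markers summed to 8191 with MCSE and 6284 with PBS, white adipocyte markers to 85860 with MCSE and 102145 with PBS, and satellite cell markers to 5097 with MCSE and 4248 with PBS, and of these lists 1 marker passed 2-fold (Megf10). Smooth muscle markers summed to 13311 with MCSE and 11344 with PBS, with 0 of 5 past 2-fold. With the probe of Acta2 (smooth muscle actin) that was brightest in muscle, at 11.99 with MCSE and 14.85 with PBS (-2.86), the direction turned, to 13948 with MCSE and 37166 with PBS, while another Acta2 probe, mMC008079, was at 1.85. The part of fibre type, or of cells from other tissues, in the differences of the 5 members was not tested.

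The genes whose profile over the 6 arrays came nearest to each member were found among 13863 others, by the root mean square gap between log2 values centred on the mean of the 6 arrays. For Csrp3 these were Lmod2 (0.323), Flnc (0.450) and Sgca (0.505). For Myf6 they were Nrap (0.244), Pdlim3 (0.283) and 2300005B03Rik (0.297). For Mef2c they were Ihpk3 (0.243), Sh3rf2 (0.310) and H19 (0.342). The muscle differences of these neighbours were not all alike. Lmod2 was 1.58 higher with MCSE and Sgca 0.28 higher, and Sh3rf2 was at -1.66 and Ihpk3 at -0.62. Of the Myf6 neighbours, Nrap was at 0.27, Pdlim3 at 0.30 and 2300005B03Rik at 1.06.

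For Myh3 the nearest were Clasp2 (0.101), Dnajb8 (0.136) and Bmp10 (0.145), all bright on the PBS adipose array, at 13.76, 11.77 and 10.77. For the brighter Smyd1 probe, mMR026664, they were Cs (0.894), Clptm1l (1.31) and Bzw2 (1.44), farther off than the neighbours of any other member probe. For Smyd1 probe mMC016067, a search added after the values were seen, they were Hrc (0.191), Mylk2 (0.256) and Ankrd23 (0.270). These gaps describe 6 arrays that share tissues and treatments.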

How the data were processed

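Each sample's RNA gave 1 Cy5-labelled target on 1 one-colour array, per the labels' protocols. The authors deposited normalized intensities on a linear scale in 1 table, a column per array, with 29922 probes. Limma is named, without a role, in the submitters' processing notes. How the background was corrected and how arrays were normalized is not given in the sources used here, nor is a genome build. The log2 median was 8.95 on every array, and the quartiles were equal too, so the arrays shared 1 distribution. Such scaling can compress bright probes and hides a shift of all genes. No detection calls were used. Precision is limited by having 1 array per group.

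Here values were raised to the 5th percentile and log2 was taken. Groups came from the titles. Of the probes, 21020 had 1 symbol in the platform annotation, 8902 had none and 0 had several, and symbols can be old. List genes were also matched through synonyms in a RefSeq table (GRCm38.p6). No batch is named in the labels or the table.

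Members and lists were chosen with earlier results of these data known. Genes named were all member probes, the families of the members, up to 4 genes past 2-fold per list and the 3 nearest profiles per member. Other genes (Cs and Bzw2 among the probes at the floor, Unc45b, Naca, Tcap, Ankrd1, Ankrd2, the Hdac genes, Ttn, Mstn, Igf1, Fbxo32, Foxo3, Ncam1, Acta2 and Pax7) and the second probes were added to the text once their values were known.

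The test of muscle against liver-labelled arrays used limma 3.58.1 (R 4.3.3) (lmFit, eBayes, Benjamini-Hochberg adjustment over 19055 probes that reached the median on 1 of 4 arrays, 2 residual degrees of freedom, a prior of 4.23), tested on simulated data. Alternatives were no floor, quantile normalization, centring, a lowess trend removed, 32 added before log2, other filters and thresholds, probe or member means, all 6 arrays, treatment as a term, a trended eBayes prior and the omission of single arrays. Other steps ran in Python 3.11.15 with pandas 2.3.3, numpy 2.4.6, statsmodels 0.14.6 and matplotlib 3.10.9.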

Additional observations from a re-analysis of the deposited data

Results flagged for a closer look

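A few member probes differed by at least 2-fold in muscle and by at least 2-fold in the opposite direction on another pair, with 1 array per group, so the difference between the pairs was not tested. Smyd1 probe mMR026664 was at -7.23 in muscle, 2.56 on the liver-labelled pair and 3.30 on the adipose-labelled pair (log2 MCSE minus PBS). Csrp3 was at 1.84 in muscle and -1.52 on the adipose-labelled pair. Myh3 was at 1.12 in muscle and -1.80 on the adipose-labelled pair. The adipose-labelled pair had 71.6% of its 20712 measured probes past 2-fold.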

How the results depend on the processing

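The muscle differences of the 6 member probes kept their direction and their side of 2-fold without the floor, with quantile normalization, centring, a lowess trend removed or 32 added before log2. Quantile normalization could change little, since the arrays already shared the same distribution. Removing the floor could move only Smyd1 probe mMR026664, and centring moved all probes alike. Csrp3 ranged from 1.83 to 1.88, Myf6 from 1.00 to 1.05 and Mef2c from -1.37 to -1.33. Of the probes measured in muscle, 1670 were higher and 1306 lower at 1.5-fold, and 210 were higher and 90 lower at 3-fold, where of the members Csrp3 and Smyd1 probe mMR026664 were left. The mean over members was 0.47 for the myosin heavy chains, 0.30 for Z-disc genes and 1.94 for slow-fibre genes, above their medians, and with an upper quartile filter the median of Mef2 cofactors was -0.38. The other 86 list values, with the probe brightest in muscle among them, moved by less than the error of the median gauged between probes.

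Between muscle and liver-labelled arrays, limma called 1645 probes higher and 2457 lower in muscle. It called 55 higher and 0 lower with all 6 arrays (811 lower by 2-fold or more at an unadjusted p under 0.05), and 782 and 1357 with no filter. Without each array in turn, 447 (without PBS muscle) to 2202 (without MCSE liver) were higher and 478 (without PBS muscle) to 2896 (without MCSE liver) were lower, and without MCSE muscle 596 and 815. The labels give no replicate numbers, so arrays were paired by treatment. Treatment as a block called 2988 higher, and Myh3 (1.16) then had an adjusted p of 0.0499. The differences of Csrp3 (5.52), Mef2c (3.99) and Smyd1 probe mMC016067 (5.03) did not pass with all 6 arrays, nor did Mef2c (3.99) with no filter. Leaving out 1 array gave -5.16 to 2.07 for Smyd1 probe mMR026664, which turned sign without MCSE muscle. The cause of these changes was not tested.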
